A study of Mus musculus with 366 samples.

Results

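Fatty acid oxidation genes were examined in the aorta of female F1 mice from a diversity panel of strains. Members were the genes of mitochondrial and peroxisomal β-oxidation together with genes that activate fatty acids or move them and carnitine across membranes, 30 genes in all out of 17097 named on the array. A probe set was taken for a member when its annotated gene symbol was that member alone, and the probe set with the highest mean was used for each gene. By this rule 27 of the 30 members were measured, namely 16 mitochondrial enzymes, 5 peroxisomal enzymes and 6 genes of activation, transport or several places in the cell. Hadha, Etfb and Acsl1 have no probe set of their own in the annotation used here and are not analysed.

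Each mouse was the F1 offspring of a female of 1 inbred or recombinant inbred strain and a C57BL/6J-background male carrying the human APOE-Leiden and human CETP transgenes, so that all mice carried both transgenes and shared 1 C57BL/6J genome copy. A strain name below stands for the F1 of that strain, and the C57BL/6J group has a C57BL/6J mother. The insertion sites and copy numbers of the transgenes were not known here. The mice were fed chow for 8 weeks and then a Western diet rich in fat and cholesterol for 16 weeks, and the aorta was taken at 24 weeks of age. The table held 366 arrays, 1 array per mouse, from 101 strains. Comparisons used the 360 arrays of the 95 strains with at least 2 arrays, 33 of them BXD, 31 classical inbred, 19 AXB/BXA, 8 CXB and 4 BXH strains.

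In β-oxidation a fatty acid is first joined to coenzyme A, carried into the mitochondrion as a carnitine ester, and then shortened in repeated rounds of dehydrogenation, hydration, dehydrogenation and thiolysis. The electrons go to the respiratory chain through the electron transfer flavoprotein. Peroxisomes run a related cycle with their own enzymes, which takes very long and branched chains and hands the shortened products on to mitochondria. In the aorta, fat cells around the vessel wall, smooth muscle cells, endothelium and macrophages can all use the pathway, and brown adipocytes burn fatty acids to make heat.

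Values are log2 intensities after normalization by the authors, so that a difference of 1 means a doubling. Levels are compared between strains for the same probe set and never between genes. The array medians lay between 3.17 and 3.39, and no 2 arrays held the same values (smallest mean absolute difference between arrays 0.148). The labels give no scan date or hybridization batch, so batches could not be examined. Defining markers of fat cells were high although the vessel was dissected free of outer fat. The mean of 7 brown adipocyte markers (Ucp1, Cidea, Elovl3, Cox7a1, Cox8b, Dio2 and Kcnk3) ranged from 9.99 to 11.7 over the 366 arrays. The mean of 7 smooth muscle markers ranged from 5.14 to 9.58, that of 9 skeletal muscle markers from 3.07 to 12.4, and 7 arrays stood out for hepatocyte markers. In these whole-tissue samples fewer cells of a type and less RNA per cell cannot be told apart.

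Promoter sequences are shown for 4 members around which the results turn, Hadhb with Acadm, the gene closest to it across strains, and Ehhadh with Decr2, the closest peroxisomal pair and the peroxisomal genes with the widest ranges. They are RefSeq windows in GRCm38.p6 that run from 250 bases before to 50 bases after an annotated start, 5′ to 3′ on the gene's strand. For Decr2 this start lies inside the gene, whose 5′ boundary is at chr17:26090322. Hadhb lies at chr5:30155003-30155302 (+), Acadm at chr3:153944594-153944893 (−), Ehhadh at chr16:21787785-21788084 (−) and Decr2 at chr17:26090115-26090414 (−). Capitals mark the nuclear receptor core motif AGGTCA, the GC box GGGCGG and the CCAAT box CCAAT, each searched on both strands.
Hadhb: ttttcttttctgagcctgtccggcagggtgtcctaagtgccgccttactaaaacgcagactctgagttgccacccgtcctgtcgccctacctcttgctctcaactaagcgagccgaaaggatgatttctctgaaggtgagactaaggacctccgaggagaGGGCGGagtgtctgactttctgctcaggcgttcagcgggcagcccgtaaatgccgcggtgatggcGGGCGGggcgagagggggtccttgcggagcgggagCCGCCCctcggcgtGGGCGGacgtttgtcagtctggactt
Acadm: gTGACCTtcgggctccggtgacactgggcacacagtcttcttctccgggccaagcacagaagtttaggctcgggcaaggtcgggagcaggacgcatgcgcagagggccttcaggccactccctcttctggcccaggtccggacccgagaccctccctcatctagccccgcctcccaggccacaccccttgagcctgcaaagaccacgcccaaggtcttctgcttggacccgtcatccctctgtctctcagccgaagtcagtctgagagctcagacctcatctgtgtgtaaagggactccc
Ehhadh: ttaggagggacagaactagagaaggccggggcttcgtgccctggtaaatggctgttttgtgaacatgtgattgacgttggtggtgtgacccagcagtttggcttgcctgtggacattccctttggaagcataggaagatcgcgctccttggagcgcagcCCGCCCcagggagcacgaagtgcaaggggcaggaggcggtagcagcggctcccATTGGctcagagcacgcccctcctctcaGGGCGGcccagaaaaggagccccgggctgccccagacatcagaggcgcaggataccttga
Decr2: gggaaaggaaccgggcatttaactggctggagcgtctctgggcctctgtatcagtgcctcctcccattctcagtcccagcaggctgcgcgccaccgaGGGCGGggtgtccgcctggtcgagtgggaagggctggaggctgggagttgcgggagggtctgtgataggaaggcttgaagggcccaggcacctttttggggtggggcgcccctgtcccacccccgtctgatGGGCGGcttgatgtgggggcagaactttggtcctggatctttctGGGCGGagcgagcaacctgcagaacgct
The Hadhb window holds 4 GC boxes, the Ehhadh window 2 GC boxes and 1 CCAAT box, the Decr2 window 3 GC boxes, and the Acadm window 1 receptor core motif. The Hadhb window shares 228 bases with the window of Hadha, the other subunit of the trifunctional protein, which is read from the opposite strand. Windows were found for 25 of the 30 members and not for Decr1, Acaa2, Acat1, Hsd17b4 and Crat. A GC box stood in the windows of 21 of these 25 members and in 35.7% of all 32851 windows, and a CCAAT box in 12 of the 25 and in 37.4% of all. A member was counted when any window of it held the motif, and shares of all are per window. The motif AGGTCA stood in 4 of the 25 (Cpt1a, Acadm, Acadvl and Echs1), a share close to the 16.3% of all windows. Its extended form TCAAGGTCA and its direct repeat with 1 base between, both of which contain AGGTCA, were found in no member window (0.423% and 0.0396% of all windows). The NRF-1 core motif was found in Etfb, Etfdh and Slc22a5 and in 4.60% of all windows.

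All 27 measured members differed among strains in the moderated F test (limma, Benjamini-Hochberg adjusted p from 4.6e-21 for Acsl5 to 0.0049 for Eci1). Over all probe sets 77.0% passed this test, and among the 5% of probe sets with the highest means 98.4% did, so that the count is close to that of other bright probe sets. The share of the variance that lay among strains had a median of 32.3% over the members, from 13.2% for Eci1 to 48.0% for Acsl5. The median was 17.9% over all probe sets and 33.0% over the brightest 5%.

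**Figure D1:**
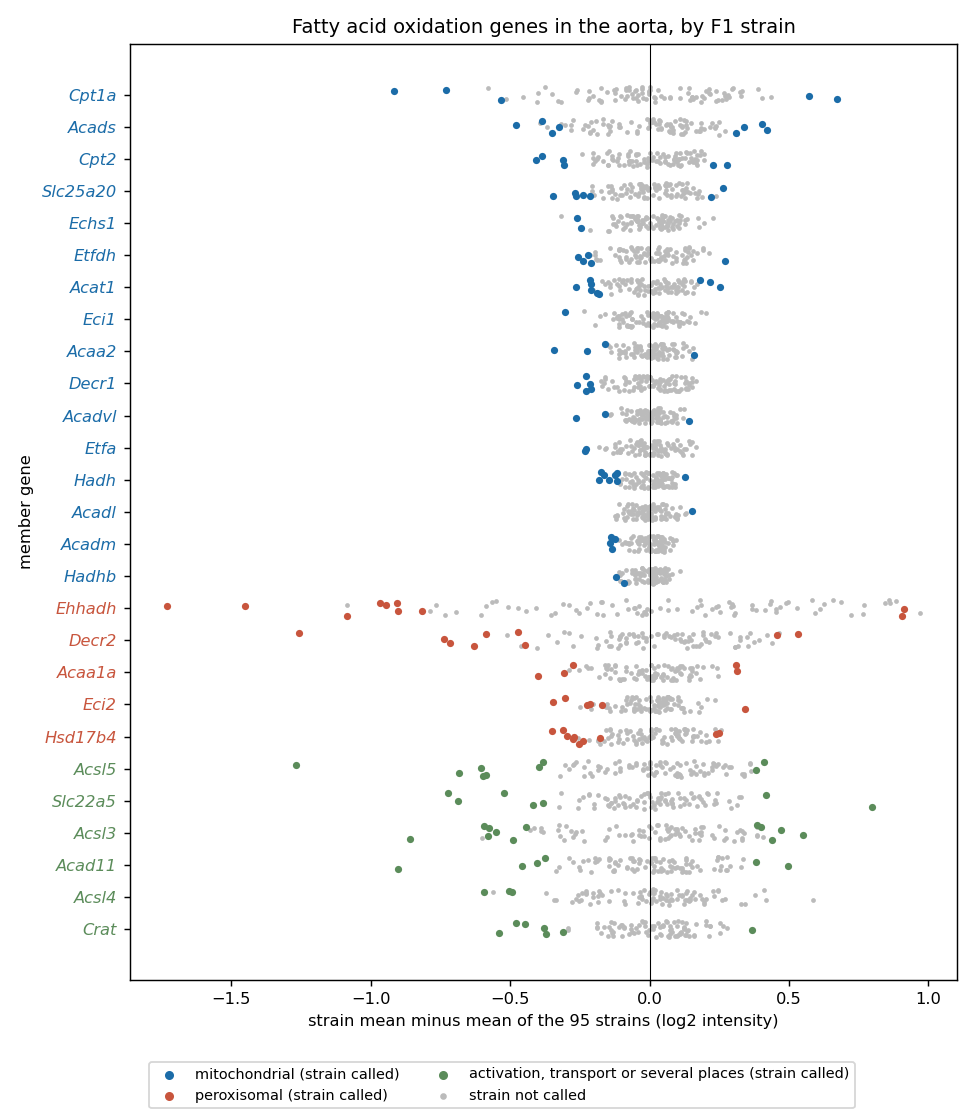
Each point is the mean of 1 F1 strain minus the mean of the 95 strains (x axis, log2 intensity) for 1 member gene (y axis, grouped and coloured by class, in order of range within a class). Coloured points are strains called different from the mean of strains; Ehhadh spans the widest range, 2.70, and Hadhb the narrowest, 0.23.

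The mitochondrial enzymes moved within narrow limits. The range between the lowest and the highest strain had a median of 0.50 on the log2 scale over the 16 genes, beside 0.71 over the 5 peroxisomal genes and 1.41 over the 6 others, and 0.72 over all probe sets. Over the brightest 5% of probe sets the median range was 0.71. Of the 16 mitochondrial probe sets, 14 had means above the 99th percentile of all probe set means (11.3). The highest value of any array was 13.7. The part of brightness in the narrow ranges was not tested.

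Among the carriers, Cpt2, the carnitine palmitoyltransferase of the inner membrane, was lowest in NOD/ShiLtJ (10.88 and 11.15 in its 2 arrays) and highest in BXD48/RwwJ (11.63, 11.71, 11.71 and 11.75). Slc25a20, which exchanges acylcarnitine for carnitine across that membrane, had the same lowest strain (11.51 and 11.56) and was highest in BXD69/RwwJ (12.11, 12.13, 12.16 and 12.16). The arrays of the lowest and highest strain did not overlap for either gene. Strains named as lowest or highest, here and below, were picked from these same arrays, so such a separation is no test.

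The acyl-CoA dehydrogenases, which start each round, take chains of different lengths. Acadvl (very long chains) ranged from 12.31 in NOD/ShiLtJ to 12.71 in BXD69/RwwJ, Acadl (long chains) from 12.49 in BXD75/RwwJ to 12.77 in BXA16/PgnJ and Acadm (medium chains) from 12.63 in AKR/J to 12.87 in BXD44/RwwJ. Acads (short chains) had the widest range of the 4, from 9.68 in BALB/cByJ to 10.58 in FVB/NJ, a 1.86-fold span. Of its variance 36.5% lay among strains, beside 19.5% to 26.0% for the other 3.

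Of the enzymes that follow, Hadhb and Hadh had the narrowest ranges (0.23 and 0.31). The others had ranges from 0.40 (Etfa) to 0.55 (Echs1). Hadhb, the thiolase subunit of the trifunctional protein, ranged from 12.86 in AXB13/PgnJ to 13.09 in BXD44/RwwJ, a 1.17-fold span, and Hadh, the dehydrogenase for shorter chains, from 12.94 in BXA24/PgnJ to 13.24 in BXD69/RwwJ. Of the variance of Hadh 41.2% lay among strains, beside 26.0% for Acadm. The SD between mice was 0.0701 and 0.0686, and the SD of the strain means was 0.0685 and 0.053. Echs1 (enoyl-CoA hydratase) and Eci1 (enoyl-CoA isomerase) had the smallest shares, 14.0% and 13.2%. For Decr1, the reductase for polyunsaturated chains, the share was 33.4%, for the electron carriers Etfa and Etfdh 25.4% and 30.7%, and for the thiolases Acaa2 and Acat1 32.4% and 40.5%.

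Acat1, which works on acetoacetyl-CoA at the end of the pathway and in ketone body use, was lowest in C3H/HeJ. Its 8 C3H/HeJ arrays read 11.13, 11.16, 11.18, 11.21, 11.22, 11.26, 11.27 and 11.32, and its 6 C57BL/6J arrays 11.44, 11.51, 11.51, 11.53, 11.53 and 11.55. The groups did not overlap.

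Cpt1a, the carnitine palmitoyltransferase of the outer membrane and the control point of entry into mitochondria, behaved unlike the rest of its class. Its strain means spanned 1.59 on the log2 scale (3.01-fold), from BXD75/RwwJ (5.73, 6.06, 6.29 and 6.62) to AKR/J (7.45, 7.52, 7.83 and 8.26).

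Among the peroxisomal enzymes, Ehhadh and Decr2 had the widest ranges of all members, and the other 3 had ranges of 0.61 to 0.71. Ehhadh, the bifunctional enzyme of the classical peroxisomal cycle and a well known target of PPARα in liver, had strain means from 7.66 in CXB8/HiAJ to 10.35 in BALB/cByJ, a 6.49-fold span. The 4 CXB8/HiAJ arrays read 7.38, 7.55, 7.70 and 8.00, those of LG/J 7.42, 7.91, 8.17 and 8.24, and those of KK/HlJ 7.93, 7.93, 8.19 and 9.16. The 3 BALB/cByJ arrays read 9.99, 10.32 and 10.75, and Ehhadh was not called different from the mean of strains there. Mice of a strain also differed more for Ehhadh than for any other member (SD between mice 0.581), and 40.3% of the variance lay among strains.

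Decr2, the peroxisomal 2,4-dienoyl-CoA reductase, was lowest in KK/HlJ (5.68, 5.85, 5.92 and 6.18) and highest in BXD69/RwwJ (7.64, 7.68, 7.73 and 7.73), a 3.45-fold span. LG/J was low as well (6.32, 6.42, 6.46 and 6.60). Hsd17b4, the other bifunctional enzyme, which serves branched and very long chains, ranged from 9.80 in LG/J to 10.41 in BXD13/TyJ. Acaa1a, a peroxisomal thiolase, ranged from 9.41 to 10.12 and Eci2, an isomerase, from 9.47 to 10.16. Acaa1a and Eci2 have near-identical copies (Acaa1b and Eci3), so their signals may be shared with these.

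Of the acyl-CoA synthetases, which activate fatty acids, Acsl5 was low in 1 strain above all. Its 4 LG/J arrays read 10.19, 10.48, 10.71 and 10.80, and the 4 arrays of the highest strain, BXD61/RwwJ, 12.17, 12.19, 12.24 and 12.28. Acsl3 was lowest in CXB8/HiAJ (6.36, 6.64, 6.69 and 6.85) and highest in AXB19/PgnJ (7.63, 7.74, 8.36 and 8.43), and Acsl4 ranged from 5.28 in LG/J to 6.46 in BXD38/TyJ. Slc22a5, the carnitine importer of the cell surface, was lowest in KK/HlJ (8.49, 8.51, 8.53 and 8.93) and highest in BXD75/RwwJ (9.93, 9.98, 10.26 and 10.34). Crat, which moves acetyl groups between coenzyme A and carnitine, ranged from 9.71 in SJL/J to 10.61 in BXD48/RwwJ. Acad11, a dehydrogenase found in both organelles, ranged from 10.30 in BXD18/TyJ to 11.70 in BXD48/RwwJ.

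Each strain was then set against the mean of the 95 strains, which gave 2565 pairs of member and strain. Of these, 39 were higher (1.52%) and 117 lower (4.56%) at an adjusted p under 0.05 over all probe sets and strains. Over all probe sets 2.29% of the pairs were higher and 1.82% lower. When the scores of adipocyte markers were covariates 131 of the 2565 pairs were called, of which 71 were among these 156. With these covariates 3.72% of all pairs of probe set and strain were called. Without covariates, lower calls made up 3.55% of the mitochondrial pairs, 6.53% of the peroxisomal pairs and 5.61% of the pairs of the other 6 genes. A member was called in 55 of the 95 strains, only lower in 34, only higher in 13 and in both directions in 8.

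AXB13/PgnJ had the most calls, with 12 members lower and none higher, at 2.20% of all probe sets lower. They included Hadh (down 0.17 ± 0.04 SE, adjusted p = 0.00043), Eci2 (−0.30 ± 0.07, 0.0014), Etfa (−0.23 ± 0.05, 0.0029) and Etfdh (−0.26 ± 0.07, 0.0082), each in 4 arrays. AXB13/PgnJ also had the lowest mean of the general adipocyte markers Adipoq and Fabp4 among the 95 strains (12.74, median 12.98). With the scores of brown, general and white adipocyte markers as covariates none of the 12 calls was kept (lowest adjusted p = 0.26).

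LG/J had 9 members lower and none higher, at 7.59% of all probe sets lower. Acsl5 was lower by 1.27 ± 0.12 (adjusted p = 2.2e-18), Ehhadh by 1.45 ± 0.29 (0.00017), Decr2 by 0.71 ± 0.14 (0.00018) and Hsd17b4 by 0.35 ± 0.08 (0.00071). LG/J also had the highest mean of smooth muscle markers (9.25, median 7.75) and a brown adipocyte mean of 10.47, where the lowest strain had 10.46 and the median strain 11.10. With the adipocyte scores as covariates Acsl5, Ehhadh and Decr2 kept their calls (−0.82, −1.13 and −0.51) and the other 6 did not.

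KK/HlJ had 7 members lower, at 2.26% of all probe sets lower, led by Decr2 (−1.26 ± 0.14, adjusted p = 2.8e-13), Slc22a5 (−0.72 ± 0.11, 2.4e-07) and Ehhadh (−1.08 ± 0.29, 0.011). Its brown adipocyte mean was 10.72 and its smooth muscle mean 8.51, where the median strain had 11.10 and 7.75. With the adipocyte scores Decr2 and Slc22a5 kept their calls (−0.92 and −0.47), and Ehhadh did not (−0.37, adjusted p = 0.46). CXB8/HiAJ had 5 members lower, at 5.08% of all probe sets lower, among them Ehhadh (−1.73 ± 0.29, 2.8e-06), Acsl3 (−0.86 ± 0.14, 1.4e-06) and Cpt1a (−0.73 ± 0.17, 0.0016), and 4 of the 5 were kept. It had the lowest endothelial marker mean of the 95 strains (6.58, median 7.20) and a skeletal muscle mean of 8.71 (median 6.42). NOD/ShiLtJ, with 2 arrays, had 6 members lower, at 2.11% of all probe sets lower, Cpt2, Slc25a20 and Acadvl among them. Its brown adipocyte mean was the lowest of the 95 strains (10.46). With the adipocyte scores none of its 6 calls was kept (lowest adjusted p = 0.07).

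The highest counts in the other direction were 6 members each in BXD69/RwwJ and BXD48/RwwJ, at 2.93% and 4.17% of all probe sets higher. In BXD69/RwwJ these were Eci2, Acat1, Slc25a20, Decr2, Hadh and Acadvl, by 0.13 (Hadh) to 0.53 (Decr2). Its smooth muscle mean was the lowest of the 95 strains (5.77), and with the adipocyte scores Acat1 and Eci2 were kept. In BXD48/RwwJ they were Acad11, Slc22a5, Acsl3, Decr2, Crat and Cpt2, and Acad11 and Slc22a5 were kept. In BXD75/RwwJ members were called in both directions, at 7.09% of all probe sets higher and 10.3% lower, with Slc22a5 higher by 0.80 ± 0.11 (adjusted p = 6.4e-09), Slc25a20, Acaa1a and Acads higher, and Cpt1a (−0.92 ± 0.17, 2.4e-05) and Acsl4 lower. All 6 of these calls were kept with the adipocyte scores.

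A/J, C3H/HeJ and DBA/2J, which are parents of recombinant inbred panels with C57BL/6J, and BALB/cJ were compared with the C57BL/6J group. BALB/cJ is a close relative of the BALB/c parent of the CXB panel. These comparisons share the 6 C57BL/6J arrays. Of the 27 members, 7 were lower in C3H/HeJ (8 arrays), 3 in BALB/cJ (4 arrays), 1 in A/J (3 arrays) and 1 in DBA/2J (5 arrays), and none was higher. Over all probe sets 8.87%, 6.23%, 4.90% and 3.65% passed in these comparisons. The median difference over the 27 members was −0.10, −0.04, −0.09 and 0.02, beside −0.02, −0.02, −0.01 and 0.00 over all probe sets. C57BL/6J itself was called above the mean of strains in Acads (0.31 ± 0.08, adjusted p = 0.014) and Acsl3 (0.40 ± 0.11, 0.02). Against that mean Acads was called in neither BALB/cJ nor C3H/HeJ, and Acsl3 was not called in BALB/cJ.

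In C3H/HeJ the lower members were Acat1 (−0.29 ± 0.06, adjusted p = 0.00032), Acaa2 (−0.21 ± 0.05, 0.0048), Acads (−0.42 ± 0.11, 0.0068), Cpt2 (−0.28 ± 0.09, 0.023), Decr1 (−0.20 ± 0.06, 0.028), Hsd17b4 (−0.25 ± 0.08, 0.029) and Eci2 (−0.23 ± 0.07, 0.034). In BALB/cJ they were Decr1 (−0.37 ± 0.07, 0.00021), Acads (−0.53 ± 0.13, 0.0057) and Acsl3 (−0.68 ± 0.18, 0.0079). The 4 BALB/cJ arrays of Decr1 (11.64, 11.84, 11.84 and 12.00) all lay below the 6 of C57BL/6J (12.13, 12.19, 12.19, 12.21, 12.21 and 12.25). In A/J only Decr1 passed (−0.25 ± 0.08, 0.049), and 8 of 9 fits that left out 1 array lost it (highest adjusted p = 0.21, without A/J replicate 2).

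DBA/2J differed from C57BL/6J in Ehhadh. Its 5 arrays read 7.44, 8.51, 8.67, 8.92 and 9.32, and the 6 C57BL/6J arrays 9.32, 9.71, 9.86, 10.18, 10.33 and 10.45, so the groups met at 9.32 and overlapped no further. The difference was −1.41 ± 0.35 (2.65-fold, adjusted p = 0.005), and without DBA/2J replicate 4 it was no longer past the threshold (adjusted p = 0.071). Among the 33 BXD strains, which descend from these 2 strains, 24 had an Ehhadh mean between the parental means of 8.57 and 9.98, 8 lay above and 1 below. For the other 3 strains the Ehhadh differences from C57BL/6J were −0.52 (A/J), −0.63 (BALB/cJ) and −0.64 (C3H/HeJ), with adjusted p of 0.57, 0.35 and 0.21. Under the adipocyte covariates Ehhadh passed in A/J (−1.02, 0.036) and BALB/cJ (−1.09, 0.016) as well as in DBA/2J (−0.91, 0.034), and not in C3H/HeJ (−0.35, 0.44). Against the mean of strains, Ehhadh in DBA/2J was lower by 0.82 ± 0.26 (adjusted p = 0.044). That call was not kept with the adipocyte scores (−0.29, adjusted p = 0.52).

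Acsl3 in BALB/cJ was lost without BALB/cJ replicate 2 (adjusted p = 0.061), and in C3H/HeJ Cpt2, Decr1, Eci2 and Hsd17b4 were lost in 3, 5, 7 and 7 of the 14 fits that left out 1 array. Of the 12 calls in these 4 comparisons, 5 held in every fit that left out 1 array, Acads and Decr1 in BALB/cJ and Acat1, Acaa2 and Acads in C3H/HeJ. Other Acaa2 probe sets, with means of 12.22 and 11.26, followed the one used at r = 0.65 and 0.21 across strains. With the scores of smooth, skeletal and cardiac muscle markers as covariates 5 of the 12 were kept. These were Decr1 and Acsl3 in BALB/cJ, Acat1 and Acaa2 in C3H/HeJ, and Ehhadh in DBA/2J. With the adipocyte scores 11 of the 12 were kept. The Acads calls were among those lost with the muscle scores (adjusted p = 0.11 in BALB/cJ and 0.12 in C3H/HeJ). The skeletal muscle mean was 8.24 in C57BL/6J, 9.0 in BALB/cJ and 6.44 in C3H/HeJ, and the smooth muscle mean was 6.59, 8.38 and 8.24.

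**Figure D2:**
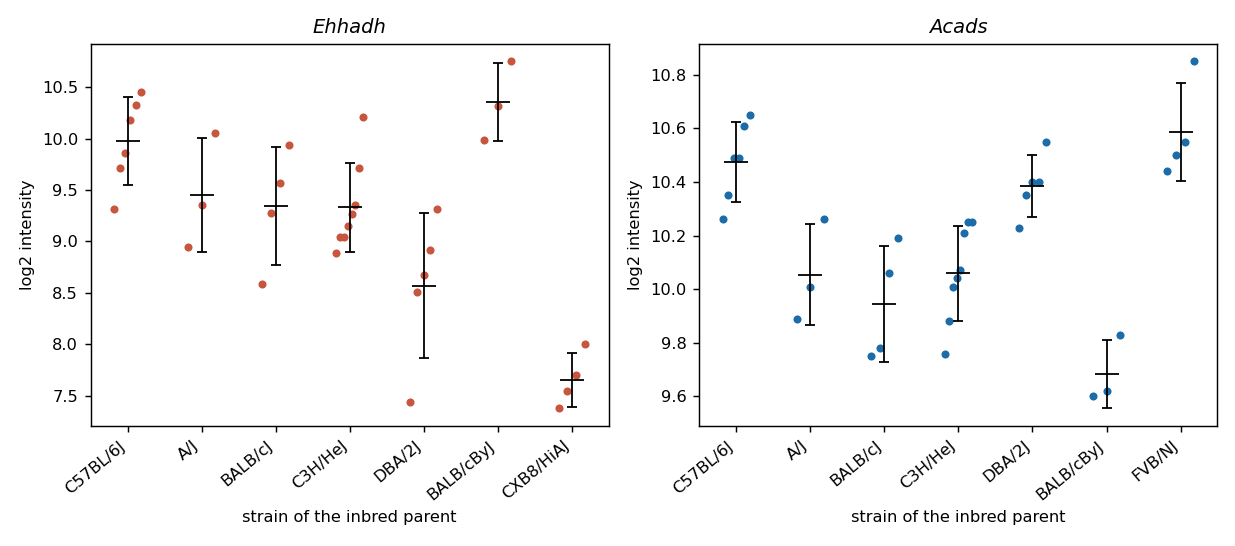
Log2 intensity (y axis) of Ehhadh and of Acads in each array of 7 F1 strains (x axis), with the mean and SD as black bars. The 5 DBA/2J arrays of Ehhadh lie at or below the lowest C57BL/6J array (9.32), and Acads is lowest in BALB/cByJ (9.60 to 9.83).

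BALB/cByJ is known for a spontaneous deletion in Acads that causes deficiency of short-chain acyl-CoA dehydrogenase, and BALB/cJ is a close relative without it. The F1 mice have 1 copy from the inbred parent, and where the probes of this probe set lie relative to the deletion was not known here. Acads was lower in BALB/cByJ than in any other of the 95 strains, by 0.48 ± 0.12 under the mean of strains (adjusted p = 0.0057), and this call was kept with the adipocyte scores (−0.51, 0.00092). Its arrays read 9.60, 9.62 and 9.83, and those of BALB/cJ 9.75, 9.78, 10.06 and 10.19, so the 2 substrains overlapped. The difference between them was −0.26 ± 0.16 (1.20-fold) and did not pass (limma adjusted p = 0.41, two-sided exact permutation test p = 0.171; the 35 arrangements allow no p under 0.0571). Of the 27 members 0 passed between the substrains in limma, where 1.95% of all probe sets did. Ehhadh was 1.01 ± 0.44 higher in BALB/cByJ (adjusted p = 0.21).

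Whether the genes of the pathway vary together was examined across the 95 strain means and, separately, between mice of the same strain. Correlations are biweight midcorrelations (bicor), which give little weight to outlying values. Strains of a panel share their 2 parental strains and all share C57BL/6J, so they are not fully independent. Across strains the 120 pairs of mitochondrial enzymes had a mean bicor of 0.386 (SD over pairs 0.325), the 10 pairs of peroxisomal enzymes 0.430 (0.174) and the 80 pairs with 1 of each 0.354 (0.268). The mean was 0.0241 (SD 0.300) over pairs of bright probe sets taken at fixed steps from the brightest 5%. The classes were not tested against each other.

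The same pattern was seen between mice of a strain, in the 360 arrays after each strain mean was taken away. The means were 0.377 among mitochondrial enzymes, 0.455 among peroxisomal enzymes and 0.399 between the classes, beside 0.0396 for the bright probe sets.

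**Figure D3:**
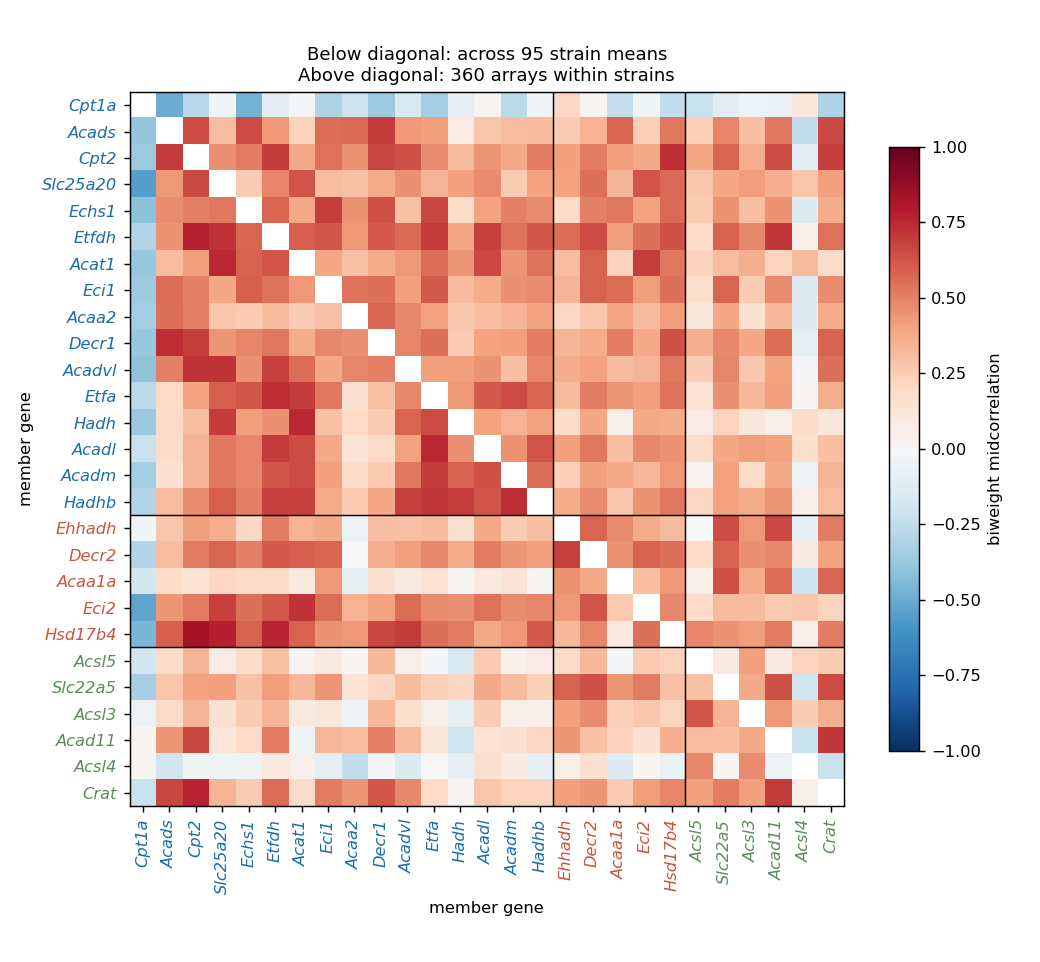
Biweight midcorrelation (colour) of each pair of the 27 measured members, below the diagonal across the 95 strain means and above it over 360 arrays within strains; lines separate mitochondrial, peroxisomal and other members. Most pairs are red, and the row and column of Cpt1a are mostly blue (from −0.55 to 0.02 across strains).

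The closest pair across strains joined the organelles. It was Cpt2 and Hsd17b4 (bicor 0.83 across strains and 0.73 within strains), followed by Slc25a20 and Hsd17b4 (0.78 and 0.57) and by Cpt2 and Etfdh (0.77 and 0.70). Cpt2 was also close to Crat (0.76 and 0.69) and Acads to Decr1 (0.74 and 0.70). Acadl was closest to Etfa (0.75), Hadh to Acat1 (0.75) and Acadm to Hadhb (0.74). Crat and Acad11, which were not counted in either class, paired with each other (0.70 and 0.71), and Acsl5 with Acsl3 (0.62).

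Cpt1a was negative with 24 of the 26 other members across strains, down to −0.55 with Slc25a20 and −0.53 with Eci2, and with 22 of 26 within strains, down to −0.50 with Acads. Its highest bicor with any member was 0.02 across strains. Without Cpt1a, the 105 remaining mitochondrial pairs had a mean of 0.492 across strains and none was below 0.13, and the 75 remaining pairs between the classes had a mean of 0.397. Cpt1b, the isoform of muscle and brown fat and no member here, had a bicor of 0.63 with the mean of the mitochondrial enzymes. Acaa2 and Acaa1a stood apart to a lesser degree, with means of 0.26 and 0.11 with the mitochondrial enzymes across strains.

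Hadhb was taken as a reference for the mitochondrial pathway and correlated with every other probe set across strains. Of the other 26 members 18 were positively correlated (adjusted p under 0.05 over all probe sets) and 1, Cpt1a, negatively. Over all probe sets 15.4% were positive and 15.7% negative. Of 15 mitochondrial enzymes 14 were positive, of 5 peroxisomal enzymes 4 were, and of the 6 other genes none was.

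The closest of all 17096 other genes was Acadm (bicor 0.74, adjusted p = 1.3e-13, Pearson's r = 0.753, Spearman's rho = 0.714). Its permutation p was 1e-05 for r and for rho, the smallest that 100000 permutations can give. Permutation p are for single pairs and are not adjusted for the choice of the closest. Etfa was the 3rd closest gene (0.71), Hadh the 7th (0.69), Etfdh the 8th (0.68), Acadvl the 9th (0.68) and Acat1 the 10th (0.68). The correlation of Acadm was 0.717 without the 2 strains farthest from the median of Hadhb, and within panels it was 0.638 (BXD), 0.735 (classical inbred), 0.717 (AXB/BXA) and 0.821 (CXB). Nearest and farthest peroxisomal members were Hsd17b4 (0.61, adjusted p = 4.5e-08) and Acaa1a (0.01, 0.96). With the adipocyte scores removed 8 members were correlated with Hadhb, against 19 without this step. A second Hadhb probe set, with a mean of 7.21, did not follow the one used (r = 0.06), and when each gene was taken as the mean of all its probe sets no member passed.

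Ehhadh as the peroxisomal reference gave a narrower set. All 4 other peroxisomal enzymes, 7 of 16 mitochondrial enzymes and 4 of the 6 other genes were positively correlated, 15 of 26 in all, and none negatively. Over all probe sets 3.16% were positive and 1.45% negative. Decr2 was the closest member (bicor 0.68, r = 0.648, rho = 0.718, permutation p = 1e-05 for each, adjusted p = 1.9e-10) and the 10th closest gene of all.

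Slc22a5 followed (0.59, r = 0.521, permutation p = 1e-05), with r of 0.674 in the classical inbred strains, 0.371 in the BXD, 0.295 in the AXB/BXA and 0.414 in the CXB strains. Etfdh was the closest mitochondrial enzyme (0.52, r = 0.532, adjusted p = 1.8e-05). The correlation of Ehhadh with Hadhb itself was 0.30 (r = 0.273, permutation p = 0.0073, adjusted p = 0.056, and 0.015 with Hadhb as the reference) and that with Acaa2 was −0.05. The 2 references made 52 comparisons with members, and adjusted p are over all probe sets for each reference.

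The mean of the 16 mitochondrial genes and that of the 5 peroxisomal genes, each gene centred on its mean over strains, served as indices. The mitochondrial index ranged from −0.15 to 0.10 over strains and the peroxisomal index from −0.61 to 0.39. Of their variance 23.9% and 38.6% lay among strains. The indices correlated at r = 0.657 (rho 0.638) over the 95 strains and 0.633 without the 2 strains farthest from the median. Within panels r was 0.678 (33 BXD), 0.623 (31 classical inbred), 0.760 (19 AXB/BXA) and 0.552 (8 CXB strains). Between mice of a strain r was 0.783.

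**Figure D4:**
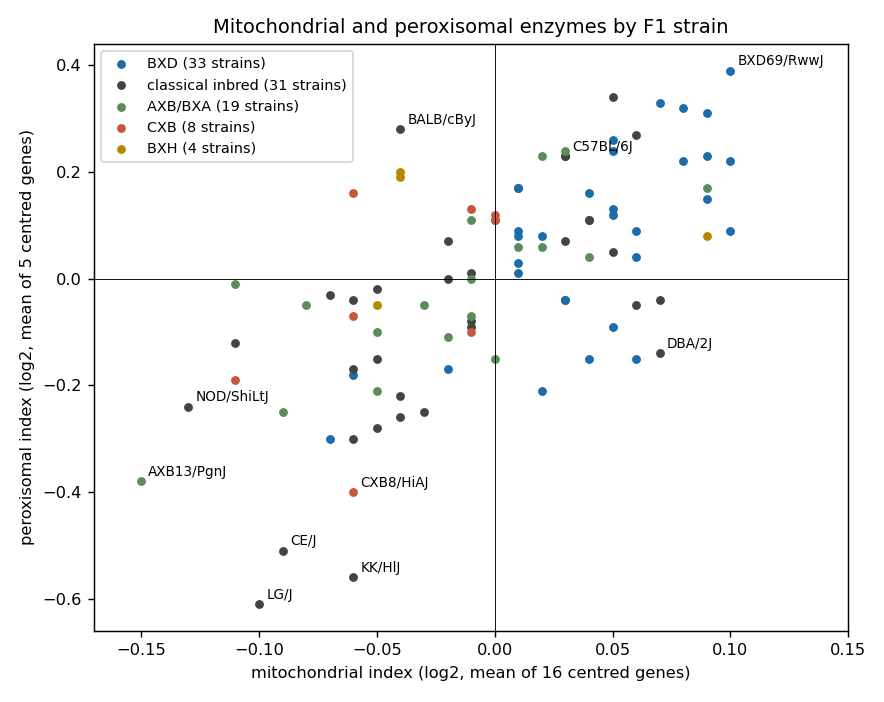
Mitochondrial index (x axis, log2) against peroxisomal index (y axis, log2) of 95 F1 strains, coloured by panel. LG/J, KK/HlJ and CE/J lie at the bottom, and 30 of the 33 BXD strains lie to the right of 0.

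The lowest mitochondrial indices were those of AXB13/PgnJ (−0.15; its 4 arrays −0.23, −0.14, −0.12 and −0.12), NOD/ShiLtJ (−0.13), CXB6/ByJ, AXB5/PgnJ and SWR/J (−0.11 each). The highest were those of BXD44/RwwJ (0.10; its arrays 0.07, 0.11, 0.11 and 0.12), BXD69/RwwJ and BXD31/TyJ (0.10 each), and BXD21/TyJ and BXA16/PgnJ (0.09 each). CXB6/ByJ and AXB5/PgnJ were not uniform, since their arrays ranged from −0.27 to 0.05 and from −0.26 to 0.05.

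For the peroxisomal index the lowest strains were LG/J (−0.61; its arrays −0.75, −0.63, −0.52 and −0.52), KK/HlJ (−0.56), CE/J (−0.51), CXB8/HiAJ (−0.40) and AXB13/PgnJ (−0.38), and the highest BXD69/RwwJ (0.39; its arrays 0.28, 0.41, 0.42 and 0.44), SEA/GnJ, BXD48/RwwJ, BXD38/TyJ and BXD73/RwwJ. Every array of LG/J lay below every array of BXD69/RwwJ, strains picked as the extremes of this index.

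The difference of the indices follows mostly the peroxisomal index, whose SD over strains was 0.203 against 0.0588 for the mitochondrial index. It was largest in LG/J (0.51) and KK/HlJ (0.50), which were low in both indices, and lowest in BALB/cByJ (−0.32), with an SD of 0.170 over strains. Of its variance 46.3% lay among strains. Ehhadh carries much of it, since without Ehhadh the SD was 0.102. By panel, the mitochondrial index was above 0 in 30 of 33 BXD, 10 of 31 classical inbred, 6 of 19 AXB/BXA, 1 of 4 BXH and 0 of 8 CXB strains, and the peroxisomal index in 24, 10, 8, 3 and 4 of them. The panels were not tested against each other.

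Genes outside the members were ranked by bicor with each index across strains, as a description. Closest to the mitochondrial index were Dhrs4 (0.87), a carbonyl reductase, then Dock8, Clybl, Dtnbp1 and Coq6 (0.78 each), Dguok, Uqcrfs1 and Akr1b10 (0.76 each), and C030006K11Rik and Pmpcb (0.75 each). Clybl, Coq6, Dguok, Uqcrfs1 and Pmpcb encode mitochondrial proteins, of which Coq6 serves ubiquinone synthesis and Uqcrfs1 is a subunit of respiratory complex III.

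Closest to the peroxisomal index were Mfsd4b1 (0.84), Acot2 (0.78) and Pxmp4 (0.78), followed by Slc25a34, Mterf4, Hdc, Ddt, Mlycd, Slc27a2 and Acot1 (0.74 to 0.77). Acot1 and Acot2 are acyl-CoA thioesterases, Pxmp4 is a peroxisomal membrane protein, Slc27a2 activates very long chains and Mlycd degrades malonyl-CoA, the inhibitor of Cpt1. Of these 10, Slc27a2 had the highest bicor between mice of a strain (0.84), while its bicor with the mitochondrial index across strains was 0.26.

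Of lists of related genes, the peroxisomal partners followed both indices. All 14 measured partners differed among strains, as did 13749 of the 17070 genes outside the members, so that the counts of these lists say little. Their median bicor was 0.47 with the mitochondrial and 0.54 with the peroxisomal index, beside 0.0655 and 0.0475 over 17070 genes outside the members. Hacl1, which cleaves 2-hydroxy and branched chains, was highest with the mitochondrial index (0.74) and Pex11a, which acts in peroxisome division, with the peroxisomal index (0.68). Acaa1b, the near-identical copy of the member Acaa1a, had 0.56 with the peroxisomal and 0.04 with the mitochondrial index across strains (0.71 and 0.51 within strains), and Abcd2 was negative with it (−0.28).

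Of 8 measured mitochondrial partners, all differed among strains and 7 were positive with each index, from Cpt1b (0.63 with the mitochondrial index) to the exception Cpt1c (−0.33 with each). Over the genes outside the members 59.2% were positive with the mitochondrial and 58.1% with the peroxisomal index. Mlycd and Acacb, of the malonyl-CoA genes, had 0.75 and 0.59 with the peroxisomal index, and Acaca had −0.16. All 4 of these genes, the 6 PPAR targets and the 16 regulators and uptake genes that were measured differed among strains. Among the PPAR targets Acot2 was highest (0.78 with the peroxisomal index) and Angptl4 lowest (−0.07). Among the regulators Tfam, the mitochondrial transcription factor, was highest with both indices (0.54 and 0.62) and Prkaa2, a catalytic subunit of AMP-activated protein kinase, lowest with both (−0.37 and −0.31). The nuclear receptors Esrra and Pparg had 0.47 each with the mitochondrial index and 0.45 and 0.30 with the peroxisomal index. Of the ketone body genes only Oxct1 was measured (0.01 and 0.05).

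**Figure D5:**
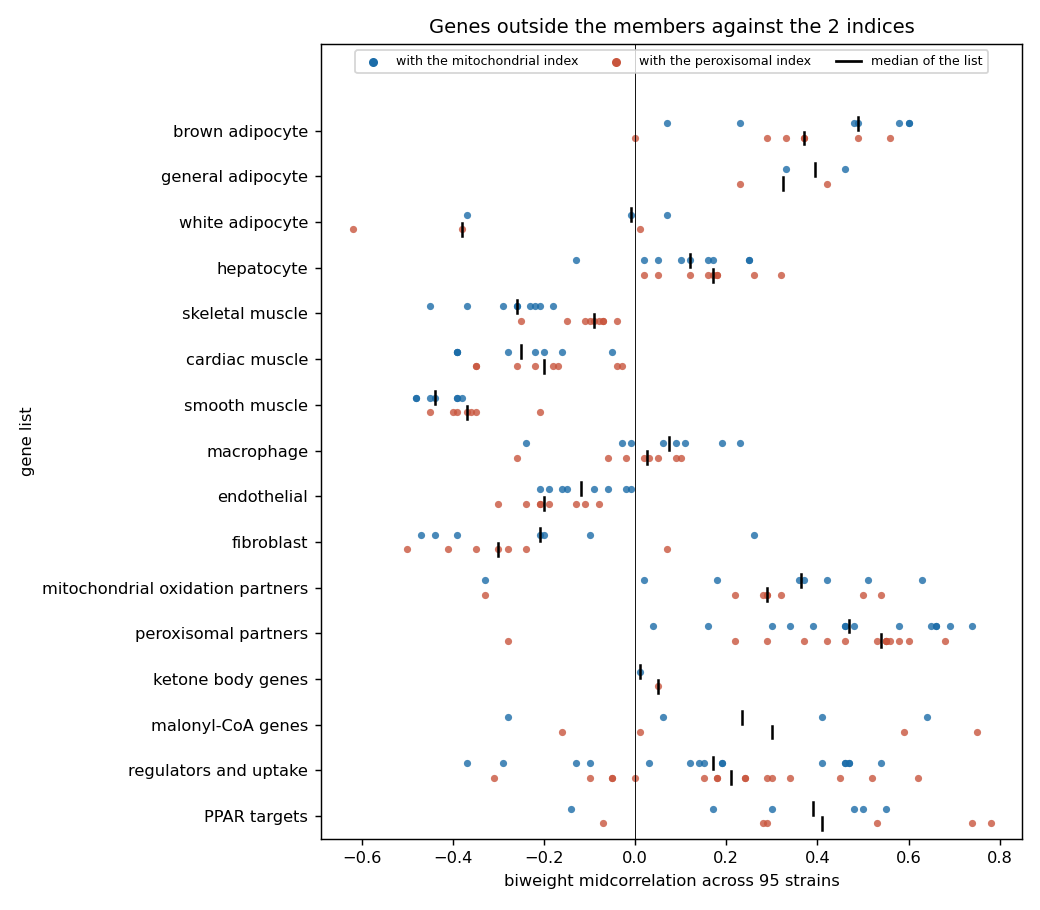
Biweight midcorrelation across 95 strains (x axis) of each gene of 16 lists (y axis) with the mitochondrial index (blue) and the peroxisomal index (red); black bars are list medians. Peroxisomal partners and brown adipocyte markers lie mostly above 0, and smooth muscle markers lie below it.

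Cell type markers moved with the indices too, and their part in the results was not tested. All 7 brown adipocyte markers were positive with the mitochondrial index (median 0.49) and 6 with the peroxisomal index (median 0.37). With the mitochondrial index they ranged from 0.07 for Dio2 to 0.58 for Ucp1 and 0.60 for Cidea and Cox8b. Over the 17070 genes outside the members 59.2% were positive with the mitochondrial and 58.1% with the peroxisomal index. Of the 3 white adipocyte markers, 1 was positive with each index, and Lep had −0.01 and −0.62. All 7 smooth muscle markers were negative with both indices (medians −0.44 and −0.37), as were all 9 skeletal and all 8 cardiac muscle markers. Macrophage markers were near 0 (medians 0.075 and 0.025). With the adipocyte scores removed the mean bicor was 0.270 among mitochondrial enzymes, 0.318 among peroxisomal enzymes and 0.237 between them across strains, and 26 of the 27 members still differed among strains (Hadhb adjusted p = 0.054).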

How the data were processed

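RNA of whole aorta was hybridized to Affymetrix arrays (HT_MG-430A in the labels, HT-MG_430 PM in the study's methods). The deposited values are log2 intensities per probe set; per the labels the authors used GCOS and RMA, whose versions are not given in the sources used here, and what else was done before deposit is not stated there. They have no depth, and the number of arrays limits the precision. Of 45141 probe sets, 104 controls were left out and 45037 tested, of which 28898 have 1 gene symbol in GEO's platform annotation, 551 several and 15588 none listed there.

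Strain means were fitted with limma 3.58.1 (R 4.3.3) over all 360 arrays of 95 strains, with a moderated F test among strains, contrasts of each strain with the mean of strains and of pairs of strains, and Benjamini-Hochberg adjustment over all probe sets. P-values measure the spread between mice of a strain (265 residual degrees of freedom). Correlations are biweight midcorrelations (constant 9) of strain means, or of arrays minus their strain mean. The share of variance among strains is the intraclass correlation. Permutation tests used 100000 permutations. Acads was also tested by an exact permutation test. Scripts were tested on simulated data.

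All members are named; of each list at most 6 genes, the highest and lowest with the mitochondrial index; 10 outside genes and 5 strains at each end per index. The members and lists were chosen with earlier results of these data known. Hadha was to be the mitochondrial reference; Hadhb took its place, chosen after seeing the annotation. Alternatives were tried for arrays (at least 3 per strain, weights, marked arrays or replicates left out), covariates, probe sets, correlation measures and classes.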

Additional observations from a re-analysis of the deposited data

Results flagged for a closer look

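In 108 groups of 4 to 8 arrays, each of a member in 1 strain, gaps between arrays were examined. In 4 groups 1 array was set apart by a gap that was wide for the range of its group. Chance gives about 1 in 20, so this count is no excess. Hadh read 12.54 in 1 of 4 BXA24/PgnJ arrays (median 13.05), and BXA24/PgnJ has the lowest Hadh mean of the 95 strains. Slc22a5 read 8.93 in 1 of 4 KK/HlJ arrays (median 8.52). Eci2 read 9.67 in 1 of 4 arrays of the same strain (median 9.58), and its SD between mice was 0.136. Acsl5 read 11.45 in 1 of 8 C3H/HeJ arrays (median 12.05).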

How the results depend on the processing

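The count of members that differed among strains was 26 or 27 under every alternative run, and the median share of variance among strains stayed between 28.7% and 37.1%. The 156 calls of a strain against the mean of strains became 282 with array weights and 75 to 106 when 1 numbered mouse of every strain was left out. The 12 calls against C57BL/6J became 5 with muscle marker scores as covariates (chosen after seeing the data), 18 with adipocyte scores, and 5 to 12 when arrays were left out; without C57BL/6J replicate 4 they were 7. The difference in Acads between BALB/cByJ and BALB/cJ ranged from −0.335 to −0.181 when 1 array was left out, was −0.464 (adjusted p = 0.102) with adipocyte scores, and passed the threshold in none of the alternatives (adjusted p 0.102 to 0.656). With the adipocyte scores as covariates the members correlated with Ehhadh fell from 15 to 9 and those with Hadhb from 19 to 8, the mean bicor among peroxisomal enzymes within strains became 0.341, and the SD of the index difference 0.123. That SD was 0.204 without Eci2 and Acat1, 0.143 with Acad11 and Crat counted as peroxisomal, and 0.102 without Ehhadh (also chosen after seeing the data). With the mean of all probe sets of a gene 0 members correlated with Hadhb, whose mean then includes a second, dimmer Hadhb probe set. Of 19 other probe sets of 13 members, 10 followed the one used (r above 0.7). Another 5 did not (below 0.4), among them a bright Acaa2 probe set (r = 0.21). No paired analysis was possible because mouse numbers follow accession order and pair no mice across strains. Depth is not defined for arrays; the 8 strains with 2 arrays, NOD/ShiLtJ, CE/J, BXD18/TyJ, BXD31/TyJ and BXD38/TyJ among them, are the least certain.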
